A study of Mus musculus with 12 samples.

Results

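The desmosome genes described here are 10 of the 23337 gene symbols counted in each library of mouse oesophageal epithelium, and all 10 passed the filter on low counts. They were taken by name: the desmogleins Dsg1a, Dsg1b, Dsg2 and Dsg3, the desmocollins Dsc2 and Dsc3, the armadillo proteins Jup, Pkp1 and Pkp3, and the plakin Dsp. Their RNA was followed across 4 genotype groups of 3 libraries each and against the share of each library's counts that came from Krt4 and Krt13, which encode the keratins that pair in suprabasal oesophageal cells.

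A desmosome is an adhesive junction that fastens the keratin filaments of neighbouring epithelial cells to each other. Desmogleins and desmocollins are cadherins that span the membrane and bind their partners on the next cell. Plakoglobin, encoded by Jup, and the plakophilins bind the cadherin tails, and desmoplakin links that plaque to keratin. In the stratified epithelium of skin the isoforms are layered, with Dsg1 and Dsc1 known as cadherins of the upper layers and Dsg3 and Dsc3 as cadherins of the lower layers. Dsg2 and Pkp2 are the isoforms known from simple epithelia and heart.

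All mice were C57BL/6 and were sampled at 6 weeks of age. Control mice had the genotype ROSA26-StopFL-Ikk2ca+/L; Stat3L/L, that is, a silent allele of constitutively active IKK2 (IKKβ, the kinase that activates NF-κB) and floxed Stat3, without Cre. The active IKKβ group was ED/L2-Cre+; ROSA26-StopFL-Ikk2ca+/L, the Stat3 loss group ED/L2-Cre+; Stat3L/L, and the combined group ED/L2-Cre+ with both alleles. ED/L2 is an Epstein-Barr virus promoter that directs Cre to oesophageal epithelial cells, so Cre itself differed between Control and every other group, and the floxed Stat3 allele that Control carried was not in the active IKKβ group. Whether the 3 libraries of one genotype are 3 mice is not stated in the labels, so p-values measure the spread between libraries. By Xist RNA alone replicate 1 was called female and replicates 2 and 3 male in each of the 4 groups, so no group came from a single mouse.

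Depth was 14.8 M to 30.2 M counts per library (M, 1000000 counts). Stat3 RNA, counted over the whole gene, was 157 to 179 counts per 1000000 of the scaled library (CPM) in Control, 139 to 154 in Stat3 loss and 154 to 194 in the combined group. Neither difference from Control passed the test (adjusted p = 0.788 and 0.988, edgeR), so this count does not separate the groups labelled with Stat3 loss, and which exons are floxed is not given in the sources used here. Ikbkb was 59.7 to 82.6 CPM in Control, 84.6 to 97.7 with active IKKβ and 83.4 to 97.0 in the combined group, without passing the test (adjusted p = 0.206 and 0.242, edgeR). The Krt4 and Krt13 share fell into separate clusters, with 6 libraries at 4.05% to 6.62% (the low-share libraries) and 6 at 10.4% to 13.9% (the high-share libraries). Each group had libraries in both clusters: Control replicates 1 and 2, active IKKβ replicate 1, Stat3 loss replicates 1 and 2 and combined replicate 2 were low-share. These clusters are not the study's groups. High-share libraries were deeper, at 19.4 M to 30.2 M counts against 14.8 M to 21.1 M. By Xist RNA 5 of the high-share libraries were male and 1 was female, against 3 male and 3 female low-share libraries. Active IKKβ replicate 1 stood apart by gastric markers, summed at 1769 CPM, and Stat3 loss replicate 3 by gastric markers at 139 CPM and skeletal muscle markers at 1563 CPM. Most of each gastric sum came from the single gene Tff2, at 1657 CPM in active IKKβ replicate 1 and 110 CPM in Stat3 loss replicate 3. Results are given without both libraries where that changes a call.

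Compared per length of transcript, the plaque genes were the most abundant. Mean levels over the 12 libraries, in CPM divided by the length of the gene's exons in kilobases (RPKM), were 531 for Pkp1, 273 for Dsp, 244 for Jup and 198 for Pkp3. The cadherins followed at 138 RPKM for Dsc2, 89.5 for Dsc3, 54.2 for Dsg3, 25.2 for Dsg1b, 19.7 for Dsg1a and 6.02 for Dsg2. The ranges of all neighbours in this order overlapped over the 12 libraries. Within a library, Pkp1 was above Dsp, Pkp3 above Dsc2, Dsc3 above Dsg3 and Dsg3 above Dsg1b in 12 of 12 libraries. Jup was above Pkp3 and Dsg1a above Dsg2 in 11, Dsp above Jup and Dsc2 above Dsc3 in 10, and Dsg1b above Dsg1a in 9. The order of Dsg1b and Dsg1a depends on the division by length. In counts Dsg1a was above Dsg1b in all libraries except those with active IKKβ. These genes are near-copies, so reads could have been moved or dropped between them. Among isoforms that are not members, Dsc1 had a mean of 33.4 RPKM, Pkp2 0.101 RPKM and Dsg1c 0.0147 RPKM.

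Jup lies on chromosome 11 (100368958 to 100397763, minus strand) and Dsp on chromosome 13 (38151294 to 38198577, plus strand) in mm10 with GENCODE M21. Pkp1 is on chromosome 1 (135871395 to 135919207, minus strand) and Pkp3 on chromosome 7 (141078218 to 141090510, plus strand). The 250 bases before the start sites of Jup and Dsp, whose RNA levels moved together over the libraries, are shown from RefSeq on GRCm38.p6 as the promoters of the 2 plaque genes that matched the promoter table, of the 10 members. Each is written 5′ to 3′ on the strand of the gene, with capitals marking every GC box, searched as GGGCGG on both strands.
Jup, chr11:100397791-100398040, minus strand: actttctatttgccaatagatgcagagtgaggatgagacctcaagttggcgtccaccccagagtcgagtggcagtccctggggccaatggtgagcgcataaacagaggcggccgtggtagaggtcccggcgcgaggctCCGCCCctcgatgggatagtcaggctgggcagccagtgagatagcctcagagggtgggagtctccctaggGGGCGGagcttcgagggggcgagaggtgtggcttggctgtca
Dsp, chr13:38151044-38151293, plus strand: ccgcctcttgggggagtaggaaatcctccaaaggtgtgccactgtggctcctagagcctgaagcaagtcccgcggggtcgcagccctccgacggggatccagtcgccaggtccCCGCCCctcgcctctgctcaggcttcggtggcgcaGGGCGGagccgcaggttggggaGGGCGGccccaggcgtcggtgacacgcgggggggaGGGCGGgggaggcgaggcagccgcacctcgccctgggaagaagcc
The Jup window held 2 GC boxes and the Dsp window 4, where 32.7% of the 32851 windows of the same length in the table held at least 1. GC content was 62.0% for Jup and 72.4% for Dsp, against a median of 52.4% over all windows. The NF-κB consensus, searched by its usual degenerate form on both strands, matched the Jup window at 2 overlapping positions on opposite strands (bases -57 to -48 and -56 to -47 from the start site), the Dsp window at none, and 7.25% of all windows. TATAAA (12.4% of windows), the AP-1 form TGANTCA (6.75%) and the STAT form of TTC and GAA with any 3 bases between (7.02%) had no match in either window. A match of letters is not evidence of binding.

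No difference between genotypes passed the test for any of the 10 desmosome genes. In edgeR's quasi-likelihood test with Benjamini-Hochberg adjustment over the 14134 genes tested, 0 of 10 members passed an adjusted p of 0.05 with active IKKβ against Control, where 0.955% of all genes did. The same count was 0 of 10 for Stat3 loss against Control (background 0%), for the combined group against Control (0.884%), against active IKKβ (0%) and against Stat3 loss (0.46%), and for the interaction of the 2 changes (0%). At an unadjusted p of 0.05 the count was also 0 of 10 in each of these 6 comparisons, and DESeq2's Wald test gave 0 of 10 in each. The 3 libraries of one group overlapped those of the other for each member in each of the 5 comparisons between groups, where 17.6%, 13.1%, 15%, 14.7% and 12.9% of all genes, in the order above, did not overlap. The libraries of a group spread widely, and a p that misses the threshold does not show that the groups were alike. Comparisons against Control share the Control libraries.

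**Figure D1:**
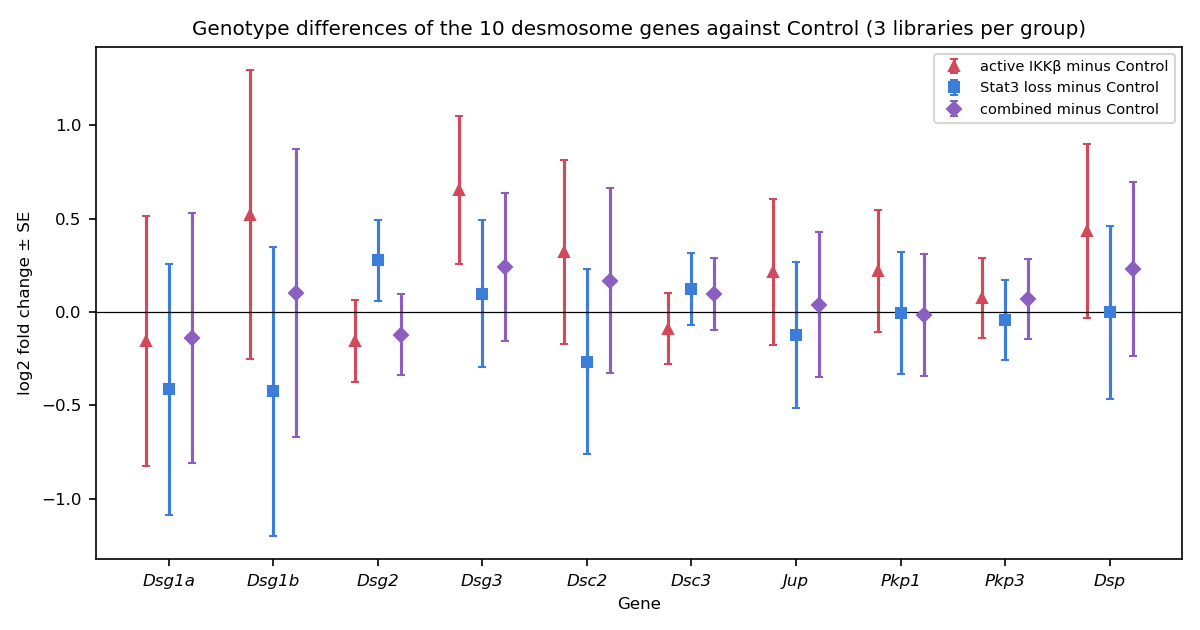
Log2 fold change of each desmosome gene (points, with bars of 1 standard error from the edgeR fit) for active IKKβ, Stat3 loss and combined against Control, n = 3 libraries per group. Error bars are widest for Dsg1a and Dsg1b, and 0 of 10 genes passed the test in each comparison.

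The 6 cadherin genes form a cluster on chromosome 18, in the order Dsc3 (19960930 to 20002351) and Dsc2 (20030633 to 20059554) on the minus strand, then Dsg1a (20310811 to 20343350), Dsg1b (20376729 to 20410196), Dsg3 (20510274 to 20547459) and Dsg2 (20558074 to 20604521) on the plus strand. Dsg1a and Dsg1b encode mouse copies of desmoglein 1, the cadherin of upper epithelial layers. Dsg1a was 67.3, 72.5 and 237 CPM in Control replicates 1 to 3, 37.6, 173 and 128 CPM with active IKKβ, 67.0, 60.3 and 156 CPM with Stat3 loss, and 126, 46.4 and 170 CPM in the combined group. Dsg1b was 40.3, 49.4 and 192 CPM in Control, 43.6, 190 and 171 CPM with active IKKβ, 47.9, 47.4 and 115 CPM with Stat3 loss, and 112, 26 and 165 CPM in the combined group. Every group held both low and high libraries of both genes: the 6 high-share libraries were at 126 to 237 CPM for Dsg1a and 112 to 192 CPM for Dsg1b, and the 6 low-share libraries at 37.6 to 72.5 CPM and 26 to 49.4 CPM. Against Control, active IKKβ gave a log2 change of -0.16 ± 0.67 (SE) for Dsg1a and 0.52 ± 0.77 for Dsg1b. For Dsg1b the log2 change was -0.42 with Stat3 loss against Control, -0.42 in the combined group against active IKKβ and 0.53 against Stat3 loss. For Dsg1a it was -0.14 in the combined group against Control, and the interaction was 0.43. None passed (adjusted p of 0.817 or more, edgeR). Because the 2 genes are near-copies, the authors' counting could have moved or dropped reads between them.

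Dsg3, known in skin as a desmoglein of the lower layers, was 209, 284 and 447 CPM in Control, 315, 584 and 578 CPM with active IKKβ, 314, 270 and 423 CPM with Stat3 loss, and 407, 184 and 520 CPM in the combined group. Its log2 change of 0.65 ± 0.40 with active IKKβ against Control was the largest of the 10 members in that comparison and did not pass (adjusted p = 0.519, edgeR). The combined group differed from Control by 0.24, and the interaction was -0.51. Dsg2, the desmoglein of simple epithelia, ran the other way among libraries. It was 48.8, 60.2 and 39.4 CPM in Control, 55.6, 41.3 and 36.2 CPM with active IKKβ, 59.9, 70.5 and 49.1 CPM with Stat3 loss, and 35.5, 52.3 and 48.6 CPM in the combined group. Its lowest library was combined replicate 1 and its highest Stat3 loss replicate 2. Log2 changes of Dsg2 were -0.16 ± 0.22 with active IKKβ and 0.28 with Stat3 loss against Control, and -0.40 in the combined group against Stat3 loss, without a call.

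Dsc2 encodes the desmocollin found across many epithelia, and Dsc3 one known in skin from basal and lower layers. Dsc2 was 431, 554 and 1101 CPM in Control, 450, 1164 and 991 CPM with active IKKβ, 462, 419 and 854 CPM with Stat3 loss, and 701, 411 and 1231 CPM in the combined group. Dsc3 was 398, 472 and 546 CPM in Control, 382, 490 and 459 CPM with active IKKβ, 478, 560 and 503 CPM with Stat3 loss, and 532, 372 and 608 CPM in the combined group. Dsc3 was the steadiest member, with its highest library at 1.64 times its lowest, while the same ratio was 2.99 for Dsc2. Against Control the log2 change with active IKKβ was 0.32 ± 0.50 for Dsc2 and -0.09 ± 0.19 for Dsc3, and the combined group was 0.18 above active IKKβ for Dsc3.

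Among the armadillo proteins, Jup was 1162, 1239 and 2186 CPM in Control, 1089, 2291 and 1943 CPM with active IKKβ, 1228, 1249 and 1736 CPM with Stat3 loss, and 1664, 820 and 2232 CPM in the combined group. Pkp1, the plakophilin that strengthens desmosomes in suprabasal cells, was 2052, 2231 and 3430 CPM in Control, 1994, 3684 and 3298 CPM with active IKKβ, 2367, 2372 and 2935 CPM with Stat3 loss, and 2717, 1511 and 3409 CPM in the combined group. Pkp3, a plakophilin found in all living layers, was 649, 613 and 844 CPM in Control, 593, 859 and 765 CPM with active IKKβ, 655, 649 and 742 CPM with Stat3 loss, and 798, 528 and 884 CPM in the combined group. Combined replicate 2 was the lowest library for all of Jup, Pkp1 and Pkp3, and each group's highest library was its library of highest share. With active IKKβ against Control the log2 changes were 0.21 ± 0.39 for Jup, 0.22 ± 0.33 for Pkp1 and 0.07 ± 0.21 for Pkp3, none of which passed.

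Dsp, the keratin linker of the plaque, was 1760, 1814 and 3430 CPM in Control, 1759, 3982 and 3715 CPM with active IKKβ, 2112, 2043 and 2840 CPM with Stat3 loss, and 2843, 1105 and 4262 CPM in the combined group. The combined group held both its lowest and its highest library, at a ratio of 3.86. Its log2 change with active IKKβ against Control was 0.43 ± 0.47. The median change over the 10 members was 0.22 in that comparison, -0.02 with Stat3 loss against Control, 0.08 in the combined group against Control, -0.16 against active IKKβ and 0.15 against Stat3 loss. Medians over all genes tested lay between -0.016 and 0.012 in these comparisons.

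The desmosome genes instead followed the Krt4 and Krt13 share of the library. A slope on the share was fitted with group terms, so that it describes libraries within groups, and Krt4 and Krt13 were left out of the 14132 genes tested. In this fit 10 of 10 members passed an adjusted p of 0.05 (edgeR quasi-likelihood test, Benjamini-Hochberg), 9 with higher and 1 with lower RNA at a higher share, where 35.1% of all genes passed, 18.5% higher and 16.6% lower. The members' median slope was a log2 difference of 1.24 per 10 percentage points of share, against -0.06 over all genes. Library sex and depth moved with the share as given above. With sex as a term 10 of 10 members passed, and with the library total as a second covariate 7 of 10, among 745 genes in place of 4962. In these bulk samples a larger proportion of cells of a type and more RNA per cell cannot be told apart.

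**Figure D2:**
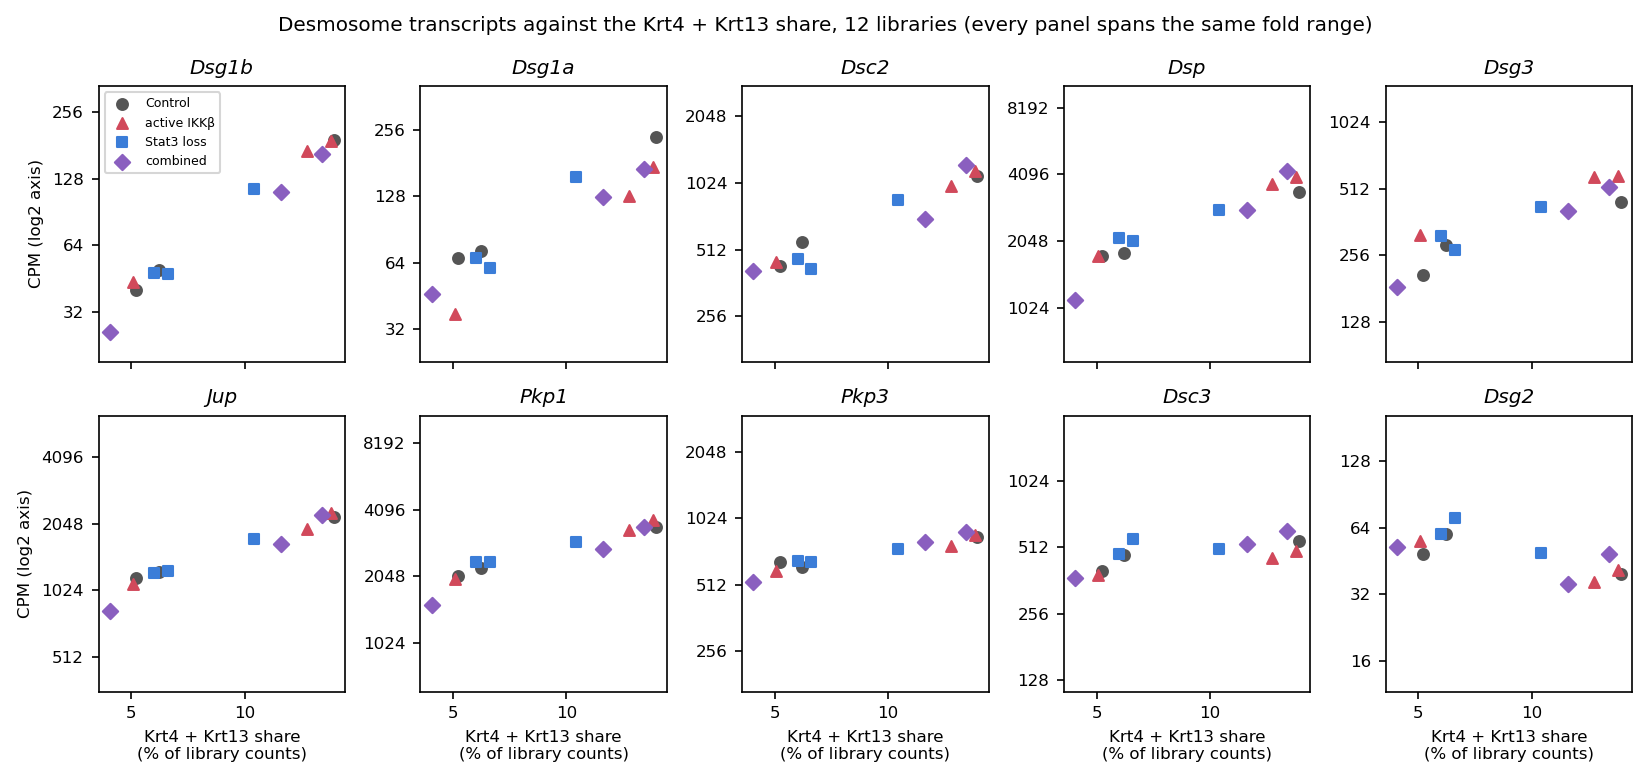
CPM of each desmosome gene (log2 axis, every panel spanning the same fold range) against the Krt4 plus Krt13 share of counts in percent, with 1 point per library coloured by genotype group, n = 12. For 8 of 10 genes the high-share libraries lie above the low-share ones without overlap, and Dsg2 lies lower in most of them.

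The steepest slopes belonged to the desmoglein 1 copies. Dsg1b rose by 2.66 ± 0.09 (SE) on the log2 scale per 10 points, 6.30-fold, with an adjusted p of 1.7e-07, which placed it at rank 1 of the 14132 genes by p in edgeR. Dsg1a rose by 2.24 ± 0.13, 4.72-fold (adjusted p = 1.75e-06, edgeR, rank 23). Dsg3 rose by 1.25 ± 0.13 (2.37-fold, adjusted p = 3.95e-05, edgeR), opposite in direction to 5 of 6 basal layer markers. Dsg2 was the member with a negative slope, -0.50 ± 0.15 (adjusted p = 0.0254, edgeR), and its call was lost without Control replicate 3 (adjusted p = 0.0999), without active IKKβ replicate 1 (0.11), without combined replicate 2 (0.0523), and without both libraries that stood apart by gastric and muscle markers (-0.36, adjusted p = 0.213). The Dsg2 call was also lost with the replicate block (-0.53, adjusted p = 0.11, edgeR). With the library total as a covariate its slope was -0.51 ± 0.34 (adjusted p = 0.451, edgeR). Within groups, Dsg2 was in the order of the share in 0 of 4 groups and in the reverse order in 0.

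Both desmocollins were higher at a higher share, Dsc2 by 1.56 ± 0.15 per 10 points (2.94-fold, adjusted p = 2.2e-05, edgeR) and Dsc3 by 0.48 ± 0.11 (1.39-fold, adjusted p = 0.00586, edgeR). Dsc2 ranged from 411 to 554 CPM in the low-share libraries and from 701 to 1231 CPM in the high-share libraries, so these did not overlap. Dsc3 ranged from 372 to 560 CPM and from 459 to 608 CPM, which did overlap. The call on Dsc3 depended on scaling: by library totals alone its slope was 0.07 (adjusted p = 0.601), and with the library total as a covariate 0.31 (adjusted p = 0.482).

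In the plaque, Dsp rose by 1.48 ± 0.15 per 10 points (2.79-fold, adjusted p = 3.17e-05), Jup by 1.24 ± 0.09 (2.36-fold, 6.66e-06), Pkp1 by 1.0 ± 0.09 (1.99-fold, 1.94e-05) and Pkp3 by 0.61 ± 0.08 (1.52-fold, 2.84e-04), all by edgeR. Jup and Pkp1 were in the order of the share in 4 of 4 groups. Dsp was in that order in 3 groups, like Dsg1a, Dsg1b, Dsg3, Dsc2 and Dsc3, and Pkp3 in 2. The library of highest share was the highest library of its group in 4 of 4 groups for 8 members and in 3 for Dsc3. How many of all genes showed these orders was not counted. In Control and in Stat3 loss replicate 3 was the only high-share library, so a gene higher in all high-share libraries is highest there by construction. High-share and low-share libraries did not overlap for 8 of 10 members, all 8 higher, where 11.6% of all genes did not overlap and 8.83% were higher. The call on Pkp3 was lost by library totals alone (0.20, adjusted p = 0.0599) and with the library total as a covariate (0.66, adjusted p = 0.0546).

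**Figure D3:**
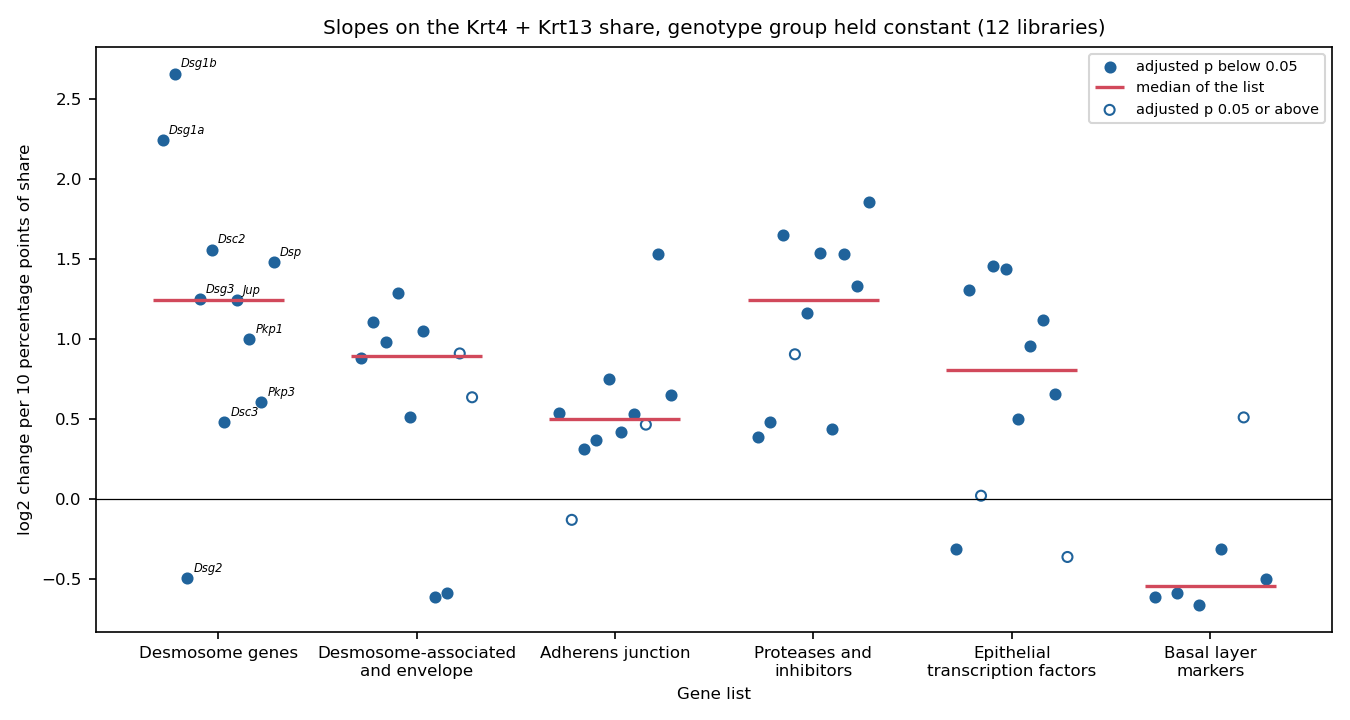
Slope of log2 RNA on the Krt4 plus Krt13 share per 10 percentage points for the desmosome genes, 4 related lists and the basal layer markers, with 1 point per gene (filled where the adjusted p is below 0.05) and a red line at the median of each list. Dsg1b is at 2.66 and Dsg1a at 2.24, and Dsg2 at -0.50 lies below 0 like 5 of 6 basal layer markers.

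Scaling by library totals moved the slope of the median gene from -0.06 to -0.47 and the calls from 2621 higher and 2341 lower to 1061 higher and 6966 lower, so slopes are relative to the scaling. Under it 8 of 10 members still passed, where 8027 of the 14132 genes did. As a share of all counts, the 10 members together made up 0.588% to 0.872% of low-share libraries and 0.928% to 1.23% of high-share libraries.

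Within each cluster of libraries the relation was tested again, since a correlation with the share across separate clusters would include the gap between them. Over the 6 low-share libraries Pearson's r between share and log2 CPM was positive for 10 of 10 members, from 0.44 for Dsc2 to 0.95 for Pkp1. Over the 6 high-share libraries it was positive for 9 of 10, from -0.19 for Dsg2 to 0.93 for Dsg1b. Of these 20 relations only that of Jup in the low-share libraries passed adjustment (r = 0.92, adjusted exact permutation p = 0.0278; rho = 1, adjusted p = 0.0556; r = 0.94 without the 2 libraries farthest from the median share). For Dsg1b r was 0.93 and 0.89 (rho 0.89 and 0.77, adjusted exact permutation p = 0.0556 for both r). Dsg2 had r = 0.80 in the low-share libraries, opposite in sign to its slope over all 12 (rho = 0.83, adjusted exact permutation p = 0.0897). How many of all genes had a positive r within a cluster was not counted. The members also varied together, so their signs are not separate agreements. Depth differed within a cluster too: the low-share library of lowest share (4.05%) had 14.8 M counts and that of highest share (6.62%) 21.1 M.

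The balance between isoforms of a pair was compared within libraries, where it does not depend on scaling. Dsc2 to Dsc3 counts stood at 0.748 to 1.18 in low-share and 1.32 to 2.38 in high-share libraries. Dsg2 to Dsg3 stood at 0.176 to 0.284 and 0.0627 to 0.116, and Pkp3 to Pkp1 at 0.274 to 0.35 and 0.232 to 0.294. The first 2 balances did not overlap between the clusters, and the third did. Between genotypes these 3 ratios overlapped in every comparison with Control. The log2 difference with active IKKβ was 0.41 for Dsc2 to Dsc3 (exact permutation p = 0.2), -0.82 for Dsg2 to Dsg3 (0.2) and -0.14 for Pkp3 to Pkp1 (0.5), two-sided, where 3 against 3 libraries allow no p below 0.1. With Stat3 loss the same ratios differed by -0.35 (exact permutation p = 0.4), 0.14 (0.7) and -0.05 (0.8), and in the combined group by 0.07 (0.7), -0.30 (0.9) and 0.10 (0.6).

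**Figure D4:**
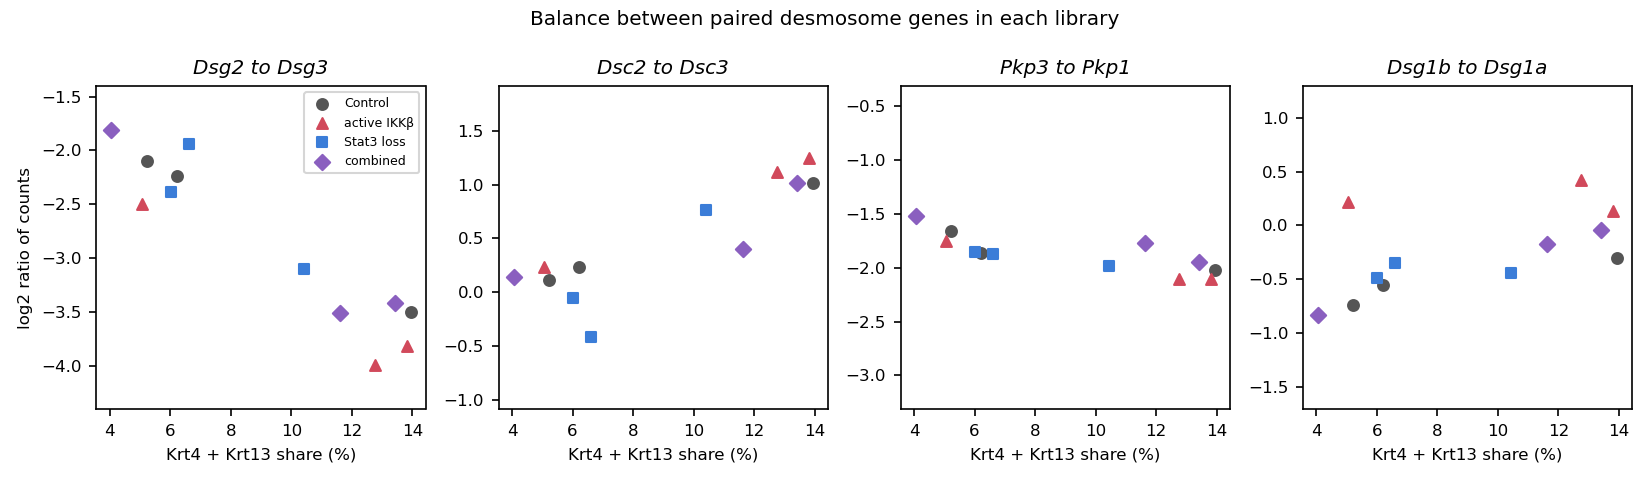
Log2 ratio of the counts of paired desmosome isoforms (vertical axis, every panel spanning the same range) against the Krt4 plus Krt13 share in percent, with 1 point per library marked by genotype group, n = 12. Dsg2 to Dsg3 falls and Dsc2 to Dsc3 rises from low-share to high-share libraries. In the Dsg1b to Dsg1a panel, a pair added after its values were seen, the active IKKβ libraries lie above all Control libraries.

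Dsg1b to Dsg1a was the pair whose active IKKβ and Control libraries did not overlap, and it was added after its values were seen. The ratio of counts was 0.598, 0.682 and 0.810 in Control and 1.16, 1.10 and 1.34 with active IKKβ, which did not overlap. The Stat3 loss libraries stood at 0.714, 0.785 and 0.738, and those of the combined group at 0.886, 0.561 and 0.970. The mean log2 ratio was -0.53 ± 0.22 (SD, n = 3) in Control and 0.26 ± 0.15 with active IKKβ, a difference of 0.79 with an exact permutation p of 0.1, the smallest that this design allows. Leaving out each library in turn gave 0.68 to 0.90. Because the pair was picked for its values, neither this p nor this range is support for a difference. In CPM 17.6% of all genes did not overlap between these groups, and no background was taken for ratios. Reads moved or dropped between these near-copies could also change this ratio. The combined group, which carries the same IKK2 allele, differed from Control by 0.18 (exact permutation p = 0.6). When the share was a covariate of the genotype fit, Dsg1a was the only member to pass, at -0.62 ± 0.13 with active IKKβ against Control (adjusted p = 0.0333, edgeR; 384 genes passed in place of 135). Dsg1b was at 0.08 ± 0.09 there (adjusted p = 0.695, edgeR) and Dsg3 at 0.40 ± 0.13 (adjusted p = 0.125, edgeR).

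Members varied together over the 12 libraries. The correlation of a member with the mean of the other 9 was 0.985 for Jup, 0.983 for Pkp1 and 0.976 for Dsp, 0.744 for Dsc3 and -0.617 for Dsg2, as a description over libraries that share depth and share differences. The 5 genes outside the set most like the members' mean, by Pearson's r over the 12 libraries, were Arhgef7 (0.991), Capn1 (0.982), Trim29 (0.978), Zdhhc5 (0.978) and Galnt10 (0.975). Krt4 was at 0.971 and Krt13 at 0.965. All r in this paragraph span both clusters of libraries, so they include the gap between the clusters. They are not tests of a relation with the share.

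Of the 5 other desmosomal isoforms, Dsc1, Pkp2 and Pkp4 passed the filter. On the share 1 of these 3 was called, where 35.1% of all genes were. Dsc1 rose with the share by 1.64 ± 0.21 per 10 points (adjusted p = 3.16e-04, edgeR). Dsc1, the desmocollin of upper layers, was 73.6 to 119 CPM in low-share and 186 to 325 CPM in high-share libraries. Pkp4 was 137 to 194 CPM in all libraries. Pkp2 had 38 counts in active IKKβ replicate 1, the library with 1769 CPM of gastric markers, and 4 to 13 counts in the other 11. Dsg2 was 55.6 CPM in that library, within the range of the other low-share libraries (48.8 to 70.5 CPM).

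Among 10 desmosome-associated plaque and envelope genes 6 rose and 2 fell with the share, where 18.5% of all genes rose and 16.6% fell. Perp, a membrane protein of desmosomes, rose by 0.88 per 10 points, and the plakins Evpl and Ppl rose by 1.11 and 0.98. The basal keratins Krt5 and Krt14, to which the basal plaque attaches, fell by 0.61 and 0.58. Krt10, the keratin of cornifying suprabasal cells, had no call on the share (0.63 ± 0.47) and was the pathway gene that changed with genotype. It was 24 to 59.7 CPM in Control, 225 to 505 CPM with active IKKβ, 25.1 to 39.3 CPM with Stat3 loss and 161 to 470 CPM in the combined group. Its log2 change was 3.1 ± 0.47 with active IKKβ (adjusted p = 0.0102, edgeR) and 3.0 ± 0.46 in the combined group (adjusted p = 0.0134, edgeR) against Control, and the combined group was 3.42 above Stat3 loss (adjusted p = 0.00862, edgeR).

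Of 10 adherens junction genes 8 rose with the share and 0 fell, where 18.5% of all genes rose and 16.6% fell. The p120 catenin gene Ctnnd1 rose by 0.75 per 10 points, vinculin (Vcl) by 0.65, Cdh1 (E-cadherin) by 0.54 and afadin (Mllt4) by 0.42. Cdh3 (P-cadherin) had no call (-0.13). Of 10 genes for proteases, inhibitors and crosslinking enzymes that act on desmosomal cadherins or the surrounding envelope, 9 rose and 0 fell. They include the kallikrein Klk13 (1.54), the kallikrein inhibitor Spink5 (1.53), and the sheddases Adam17 (0.48) and Adam10 (0.38), while Klk7 did not pass (0.90, adjusted p = 0.108, edgeR). Of 10 epithelial transcription factors 7 rose and 1 fell: Grhl1, a factor known to act on desmosomal cadherin genes, rose by 1.30, Grhl3 by 1.45, Ehf by 0.66 and Klf5 by 0.50, and Trp63 fell by 0.31. The median slopes were 0.89 for the associated genes, 0.50 for adherens junctions, 1.24 for the proteases and 0.81 for the factors, beside 1.24 for the 10 members. In the adherens junction, protease and transcription factor lists, none of the genes passed in any of the 6 genotype comparisons.

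Layer markers moved with the share. Basal markers (Krt5, Krt14, Krt15, Trp63, Itga6, Itgb4) summed to 22890 to 29497 CPM in low-share and 15662 to 19838 CPM in high-share libraries, with 5 of 6 falling along the share and 0 of 6 at 0 counts in any library. Suprabasal markers other than Krt4 and Krt13 rose in 4 of 4 cases. Over all genes 18.5% rose and 16.6% fell. Markers of other cells overlapped between the clusters: summed levels were 552 to 2276 CPM in low-share and 519 to 1674 CPM in high-share libraries for 5 fibroblast genes, 926 to 1835 and 818 to 3637 CPM for 5 smooth muscle genes, 49.1 to 716 and 22.6 to 1563 CPM for 8 skeletal muscle genes, and 0.966 to 1769 and 1.03 to 139 CPM for 12 gastric genes, of which up to 8 were at 0 in a library. Endothelial, adipocyte, nerve and leukocyte markers summed to at most 166 CPM. Other libraries also stood high for single lists: Control replicate 3 for nerve and glia (141 CPM), Control replicate 2 for adipocytes (146 CPM) and active IKKβ replicate 3 for smooth muscle (3637 CPM). Skeletal muscle markers were 700 CPM in Stat3 loss replicate 2, beside 716 CPM in active IKKβ replicate 1. Of all these markers Cd207, a marker of Langerhans cells, was the one called between genotypes (2.52 with active IKKβ against Control, adjusted p = 0.0414, edgeR). None of the tested genes of these 8 lists had a call on the share, where 35.1% of all genes did. The part of these markers in the members' values was not tested. Without active IKKβ replicate 1 and Stat3 loss replicate 3 the members' slopes kept their calls, except that of Dsg2.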

How the data were processed

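Gene-level read counts of 12 polyA RNA libraries from mechanically separated oesophageal epithelium were used, 3 in each of 4 groups assigned from the genotype labels. The deposited counts are unscaled; per the submitters' processing notes the authors used cutadapt 1.13, STAR, mm10, HTSeq 0.6.1p1 and DESeq2. Strand setting is not given in the sources used here; Dsg2, Dsp and Pkp1 overlap other annotated genes that have no row of their own in the files. Positions and exon lengths come from GENCODE M21.

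edgeR 4.0.16 (limma 3.58.1, R 4.3.3) fitted 1 robust quasi-likelihood model to all libraries after filterByExpr (14134 genes) and TMM scaling, with p-values adjusted by Benjamini-Hochberg and a call below 0.05. CPM use TMM-scaled library sizes and log2 values a prior count of 2. The share slope adds the Krt4 plus Krt13 percentage of counts to the group terms. The clusters of libraries were divided at the largest gap, at a share of 8.52%. Exact permutation tests rearranged libraries. No library repeated another of its group. The fits were run on simulated data drawn with the spread left after the share term. No recovery rate for the genotype comparisons is therefore taken from them.

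The members, 15 gene lists, motifs and tests were chosen with earlier results of these data known. Named genes were the members, Krt4 and Krt13, up to 4 genes per list with calls or the smallest adjusted p, and the 5 genes most like the members' mean. Named beyond that rule, chosen with their values seen, were Stat3, Ikbkb, Dsg1c, Perp, Evpl, Ppl, Krt14, Cdh1, Spink5, Grhl3 and Trp63. Alternatives were other scaling and filters, DESeq2 1.42.0, a replicate block, the compared groups alone, the share as covariate, log2 share, no group terms, each library left out, and both gastric- and muscle-rich libraries left out. Library total and sex (from Xist) as covariates were added after seeing the data.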

Additional observations from a re-analysis of the deposited data

How the results depend on the processing

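The count of 0 called members held in the 6 genotype comparisons under each alternative, except that the share covariate gave 1 with active IKKβ against Control. For the share slope 10 members passed, and 9 with the replicate block or without both gastric- and muscle-rich libraries, 8 by library totals, 7 with the library total as covariate and 9 to 10 leaving out each library in turn. Each direction of slope held under these. Of all genes tested, 4962 of 14132 passed in the main fit and 2905 of 14132 with the replicate block. Without both gastric- and muscle-rich libraries 3504 of 14267 passed, and by library totals 8027 of 14132. With the library total as covariate 745 of 14132 passed, and 3282 to 4934 genes leaving out each library in turn.

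Replicate numbers carry sex (replicate 1 female, replicates 2 and 3 male in all 4 groups), but nothing in the labels pairs the libraries by number. Deviations of same-numbered libraries correlated at -0.41 to 0.45 (median 0.10), over 0.1 in 9 of 18 pairs. Those of other pairs correlated at -0.54 to 0.39 (median -0.064), over 0.1 in 12 of 36 pairs. With the replicate block no further member passed, and the log2 change of Dsg1a turned to 0.059 with active IKKβ and 0.044 in the combined group against Control, the slope of Dsg2 to -0.53 (adjusted p = 0.11). With sex as a factor Dsg1a in the combined group was at 0.039.

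With the share covariate the sign turned, without a call, for 4 of 10 members with active IKKβ, 5 with Stat3 loss and 5 in the combined group against Control, 1 in the combined group against active IKKβ, 6 against Stat3 loss and 1 in the interaction. Among the values printed above that did so, active IKKβ against Control gave -0.00053 for Dsc2, -0.052 for Jup, -0.00063 for Pkp1 and -0.056 for Pkp3, and Dsg1b gave 0.028 with Stat3 loss against Control and -0.24 in the combined group against Stat3 loss. By library totals Pkp3 gave -0.0048 with active IKKβ. Without both gastric- and muscle-rich libraries Dsg1a gave 0.26 and Dsc3 0.012. The cause was not tested.

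Leaving out each library in turn, the change with active IKKβ against Control ran from -0.64 to 0.69 for Dsg1a, -0.20 to 0.024 for Dsc3, -0.35 to 0.0098 for Dsg2, -0.041 to 0.56 for Jup and -0.075 to 0.22 for Pkp3, and without a change of sign from 0.16 to 1.58 for Dsg1b, 0.43 to 0.99 for Dsg3, 0.021 to 0.82 for Dsc2, 0.014 to 0.48 for Pkp1 and 0.20 to 0.81 for Dsp. In the combined group against Control it ran from -0.56 to 0.71 for Dsg1a and -0.10 to 0.59 for Dsg3. For Dsg1b it ran from -0.99 to 0.64 with Stat3 loss, and for the combined group from -0.97 to 0.037 against active IKKβ and -0.026 to 1.08 against Stat3 loss. The interaction of Dsg1a ran from -0.41 to 1.01. Balances ran from -0.18 to 0.35 (Dsc2 to Dsc3, combined), -0.31 to 0.45 (Dsg2 to Dsg3, Stat3 loss), -0.0089 to 0.21 (Pkp3 to Pkp1, combined) and -0.14 to 0.040 (Pkp3 to Pkp1, Stat3 loss).

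Over all genes, calls in the comparisons with Control were 135, 0 and 125, against 442, 106 and 476 by DESeq2's Wald test, 61, 0 and 14 in fits of the compared groups alone, 66, 0 and 53 by library totals, and 384, 0 and 452 with the share covariate. In the combined group against active IKKβ and against Stat3 loss they were 0 and 65, against 131 and 297 by DESeq2. Precision differed between members: the standard error of the log2 change with active IKKβ against Control was 0.19 for Dsc3 and 0.77 for Dsg1b.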
